A study of Mus musculus with 15 samples.

Results

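The tricarboxylic acid cycle, or citrate cycle, is the ring of reactions in the mitochondrial matrix that burns acetyl groups to carbon dioxide and passes the electrons to the respiratory chain. The genes described are Cs, Idh3a, Idh3b, Idh3g, Ogdh, Suclg1, Sucla2, Fh1 and Mdh2, 9 nuclear genes that encode enzymes of the cycle and were chosen by name. All 9 were measured, each by 1 probe set that names this gene alone, among 22180 genes with such a probe set. None of them was removed by a filter on low values.

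The arrays measured total RNA of the aorta of DBA/2NCrl mice, an inbred strain, aged 8 weeks at the start and fed for 5 days. In the abdominal segment 4 arrays came from mice given a diet rich in phosphate, with phosphorus at 20.2 g per kg, and 4 from mice given standard chow at 7.0 g per kg. The thoracic segment was represented by 3 high-phosphate and 4 chow arrays, which makes 15 arrays in all, labelled as biological replicates. Whether RNA of several mice was pooled, and whether a mouse gave both of its segments, is not stated in the labels.

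Every cell with mitochondria runs the citrate cycle, but the amount of its enzymes follows the mitochondrial content of a cell. Heart muscle and brown fat, which oxidises fatty acids to make heat, are rich in them, and the mouse aorta is wrapped in fat that can hold brown adipocytes. Whole-tissue RNA was measured here, so fewer cells of a type and less RNA per cell cannot be told apart.

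Several tissues contributed to these arrays. The mean of 10 smooth muscle genes, which mark the vessel wall itself, lay between 8.01 and 9.26 on the log2 scale over the arrays. Genes of skeletal muscle, 10 as well, averaged 5.43 to 7.97 in abdominal chow and 5.36 to 7.32 in abdominal high phosphate. In the thoracic groups they averaged 5.35 to 6.42 on chow and 5.75 to 7.45 on high phosphate. Genes of T and NK cells, 10 in all, averaged between 7.07 and 7.71 in arrays 1, 2 and 4 of the abdominal high-phosphate group and in abdominal chow arrays 2 and 4, and between 5.35 and 5.86 in the other 10 arrays. Hepatocyte genes, again 10, averaged 8.29 in array 3 and 10.41 in array 4 of the abdominal high-phosphate group and between 5.33 and 6.63 in the others. Each abdominal high-phosphate array thus carried markers of at least 1 other tissue. The abdominal results on the 9 genes are therefore also given without either set of arrays. Arrays of a group correlated at 0.9754 to 0.9930 across genes.

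On the high-phosphate diet all 9 citrate cycle genes fell in the abdominal aorta. The falls ran from 0.74 on the log2 scale for Idh3b and Idh3g to 1.73 for Idh3a, with a median change of -0.97. A limma fit over all genes called each of the 9 lower at a Benjamini-Hochberg adjusted p under 0.05, the rule used for every call below. Of all genes 5.06% were called lower and 1.95% higher in this comparison, and the median change of all genes was -0.01. In each of the 9 genes the 4 high-phosphate arrays lay below the 4 chow arrays without overlap, which held in that direction for 7.75% of all genes.

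Cs encodes citrate synthase, which joins acetyl-CoA to oxaloacetate and opens the cycle. In the abdominal segment its log2 intensity (probe set 17238433) was 11.14, 10.97, 10.92 and 10.83 in chow arrays 1 to 4 and 9.79, 9.95, 10.13 and 9.90 in high-phosphate arrays 1 to 4. The lowest chow array stood well above the highest high-phosphate array. The group means were 10.96 ± 0.13 (SD, n = 4) and 9.94 ± 0.14 (SD, n = 4), a change of -1.02 ± 0.102 (SE) with an adjusted p of 5.06e-05 from limma. The high-phosphate level was 49.2% of the chow level.

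Isocitrate dehydrogenase of the NAD-dependent kind makes oxoglutarate and is built from the catalytic subunit of Idh3a and the subunits of Idh3b and Idh3g. Idh3a (probe set 17517390) read 10.58, 10.22, 10.19 and 9.93 in the abdominal chow arrays and 8.61, 8.43, 8.64 and 8.32 in the high-phosphate arrays. More than a whole log2 unit separated the lowest chow array from the highest high-phosphate array. The change was -1.73 ± 0.201 (adjusted p = 0.000132 in limma), to 30% of the chow level, and it was the 11th largest fall among the 22180 genes. The other subunits fell less. Idh3b (probe set 17391608) went from 11.14 ± 0.18 to 10.40 ± 0.09, a change of -0.74 ± 0.113 (adjusted p = 0.000897 in limma). Idh3g (probe set 17542392) went from 11.38 ± 0.09 to 10.64 ± 0.07, a change of -0.74 ± 0.0762 (adjusted p = 6.37e-05 in limma).

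Ogdh encodes the first subunit of the oxoglutarate dehydrogenase complex, which forms succinyl-CoA. It read 11.01, 10.72, 10.66 and 10.62 on chow and 9.83, 9.84, 10.01 and 9.80 on high phosphate (probe set 17247080), a change of -0.88 ± 0.13 (adjusted p = 0.000675 in limma). Chow array 1 was the highest of its group here, as it was for all 9 genes, and its T and NK cell mean of 5.49 was the lowest of the abdominal arrays.

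Succinyl-CoA synthetase, the step of the cycle that yields ATP or GTP directly, pairs the alpha subunit of Suclg1 with the ATP-forming beta subunit of Sucla2 or a GTP-forming counterpart. Suclg1 (probe set 17459716) read 10.52, 10.48, 10.31 and 10.19 on chow and 9.05, 8.97, 9.33 and 9.01 on high phosphate. All high-phosphate arrays were thus far below all chow arrays. The change was -1.28 ± 0.109, to 41.1% of the chow level, and its p was the 6th smallest of all genes (adjusted p = 2.17e-05 in limma). Sucla2 (probe set 17301899) read 10.70, 10.43, 10.39 and 10.23 on chow and 9.25, 9.51, 9.49 and 9.29 on high phosphate, a change of -1.05 ± 0.115 (adjusted p = 8.89e-05 in limma).

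Fh1 encodes fumarase, which adds water to fumarate, and Mdh2 the malate dehydrogenase that regenerates oxaloacetate. Fh1 (probe set 17230153) read 11.00, 10.50, 10.45 and 10.48 on chow and 9.55, 9.60, 9.74 and 9.67 on high phosphate, a change of -0.97 ± 0.129 (adjusted p = 0.000311 in limma). Its chow array 1 stood well above the other 3, and without that array the change was -0.84 and still called. Mdh2 (probe set 17443310) read 11.29, 11.03, 11.10 and 11.05 on chow and 10.33, 10.35, 10.38 and 10.21 on high phosphate, a change of -0.80 ± 0.0869 (adjusted p = 7.9e-05 in limma). RNA of all 9 genes, which encode enzymes of the cycle from citrate synthase to malate dehydrogenase, was therefore lower. The amount and activity of the enzymes were not measured.

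**Figure D1:**
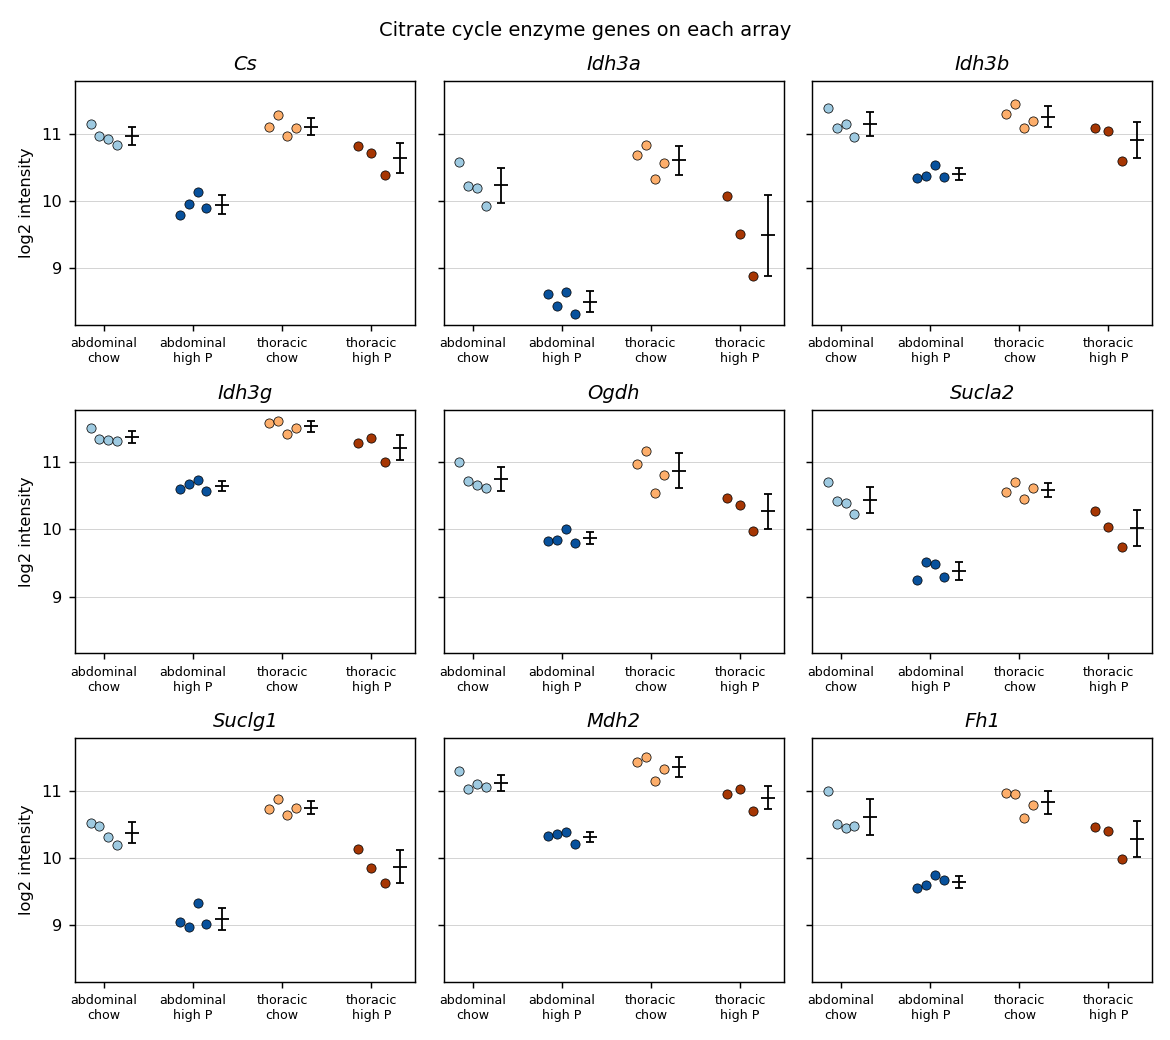
Log2 intensity of the 9 citrate cycle genes in each array (points, from replicate 1 on the left), with the mean and SD of each group (bars), for abdominal and thoracic aorta on chow or high phosphate (high P). The abdominal high-phosphate arrays lie below the abdominal chow arrays in every gene, with Idh3a between 8.32 and 8.64 against 9.93 to 10.58.

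No fit could leave out every abdominal high-phosphate array with markers of another tissue, so each kind was left out in turn. Without high-phosphate arrays 3 and 4, those with hepatocyte markers, the changes ran from -1.71 for Idh3a to -0.74 for Idh3g. All 9 were called, against 7.81% of all genes. The high-phosphate arrays kept, 1 and 2, each had a T and NK cell mean of 7.71. In that fit T and NK cell genes had a median change of 1.27 and B cell genes of 1.43. With all arrays these medians were 0.70 and 0.57. Without the 5 arrays high in T and NK cell genes the median change was -0.90, with Idh3a at -1.75, Cs at -0.90 and Idh3g at -0.70. That fit kept only high-phosphate array 3, itself among those with hepatocyte markers, against chow arrays 1 and 3. Glycam1, which marks lymph node vessels, read 12.20 in high-phosphate array 3, 12.17 in chow array 3 and 8.95 in chow array 1. Its thoracic values were 6.28 to 6.76. The fit assumed the lone array to vary like the other groups. It called 2 of the 9, Suclg1 (adjusted p = 0.0276 in limma) and Sucla2 (adjusted p = 0.0484 in limma), and 0.618% of all genes.

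In the thoracic aorta the 9 genes again had lower means on high phosphate, with smaller differences. Of the 9, 6 were called lower, namely Cs, Idh3a, Ogdh, Suclg1, Sucla2 and Mdh2, against 1.08% of all genes called lower and 1.39% higher. All 6 had also fallen in the abdominal segment, and 0.974% of all genes were called lower in both. The median change was -0.55, beside -0.01 for all genes. The groups did not overlap in 8 of the 9, all but Idh3b, which held in that direction for 6.67% of all genes.

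The largest thoracic falls were those of the genes that led in the abdominal segment. Idh3a read 10.69, 10.84, 10.33 and 10.56 in chow arrays 1 to 4 and 10.08, 9.50 and 8.88 in high-phosphate arrays 1 to 3. The 3 high-phosphate arrays spread over more than a log2 unit, with array 3 far the lowest. The change was -1.12 ± 0.217 (adjusted p = 0.0142 in limma), to 46.2% of the chow level. Suclg1 read 10.73, 10.88, 10.64 and 10.74 on chow and 10.13, 9.85 and 9.63 on high phosphate, a change of -0.88 ± 0.118 (adjusted p = 0.00154 in limma). It was the only gene of the 9 whose thoracic call held in each of the 7 fits that left out 1 thoracic array.

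The remaining thoracic calls were more modest. Ogdh changed by -0.60 ± 0.141 (adjusted p = 0.0341 in limma), from 10.87 ± 0.26 to 10.27 ± 0.26. Sucla2 read 10.56, 10.70, 10.45 and 10.62 on chow and 10.27, 10.04 and 9.74 on high phosphate, a change of -0.57 ± 0.124 (adjusted p = 0.0262 in limma). Cs read 11.10, 11.28, 10.97 and 11.08 on chow and 10.82, 10.72 and 10.39 on high phosphate, a change of -0.47 ± 0.11 (adjusted p = 0.0362 in limma). In each of these the groups stood apart, but narrowly for Ogdh, whose lowest chow array read 10.54 and highest high-phosphate array 10.47. Mdh2 changed by -0.45 ± 0.0939 (adjusted p = 0.0197 in limma), from 11.35 ± 0.15 to 10.89 ± 0.17.

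Fh1, Idh3g and Idh3b did not pass in the thoracic segment. Fh1 differed by -0.55 ± 0.14 (adjusted p = 0.0533 in limma) and Idh3g by -0.32 ± 0.0823 (adjusted p = 0.0569 in limma). Idh3b differed by -0.35 ± 0.122 (adjusted p = 0.178 in limma), with a 95% interval from -0.61 to -0.09. Thoracic high-phosphate array 3 was the lowest of its group in 9 of 9 genes. Without it the median change was -0.40 and 1 gene was called, and without high-phosphate array 2 it was -0.58 with 2 called. Leaving out chow array 1, 2 or 4 left 1, 2 and 2 called with medians of -0.50, -0.51 and -0.55. With only the thoracic arrays in the fit 2 of the 9 were called, Suclg1 and Sucla2. The share of all genes called in each of these fits is not given here.

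**Figure D2:**
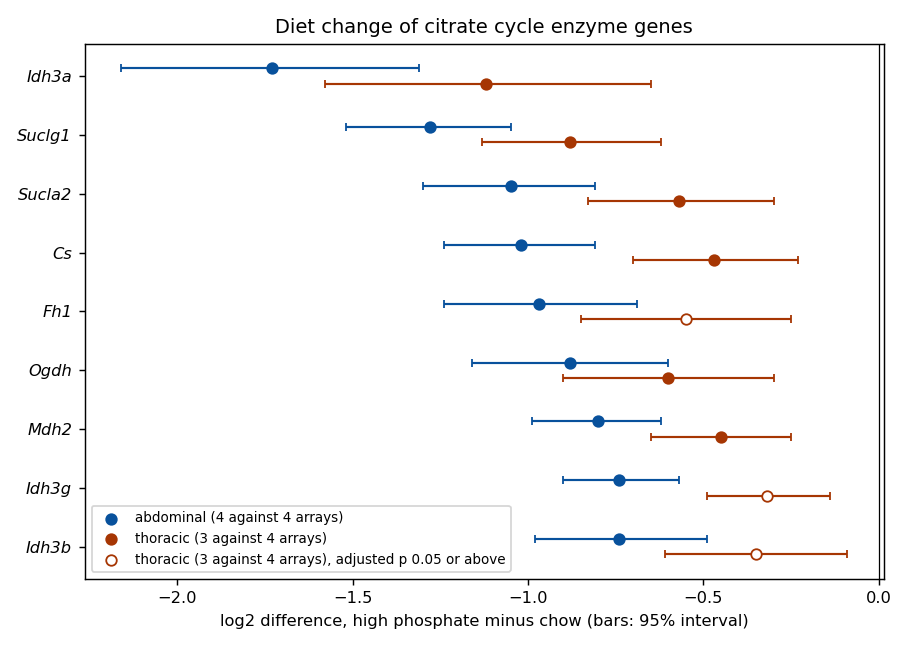
Log2 difference between high phosphate and chow for each citrate cycle gene in the abdominal and thoracic aorta, with 95% intervals from limma and open points where the adjusted p was 0.05 or above. Idh3a lies farthest to the left in both segments, at -1.73 and -1.12, and every abdominal point lies to the left of its thoracic one.

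The abdominal change was the more negative in 9 of 9 genes, by 0.28 for Ogdh to 0.62 for Idh3a on the log2 scale. The test of this difference between segments in limma called 0 of the 9, and 0 of 22180 genes, at the adjusted threshold. Without adjustment, at a p under 0.05, the same limma test picked 7 of the 9, all but Idh3a and Ogdh, against 5.49% of all genes. Without the 5 arrays high in T and NK cell genes it picked 0 of the 9, against 4.01% of all genes, at a median difference of -0.38 beside -0.42 with all arrays. The differences and their 95% intervals were -0.56 (-0.88 to -0.24) for Cs, -0.42 (-0.66 to -0.18) for Idh3g and -0.28 (-0.68 to 0.13) for Ogdh. These intervals are not adjusted for the number of genes, and no gene of the 9 is shown to respond differently in the segments.

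**Figure D3:**
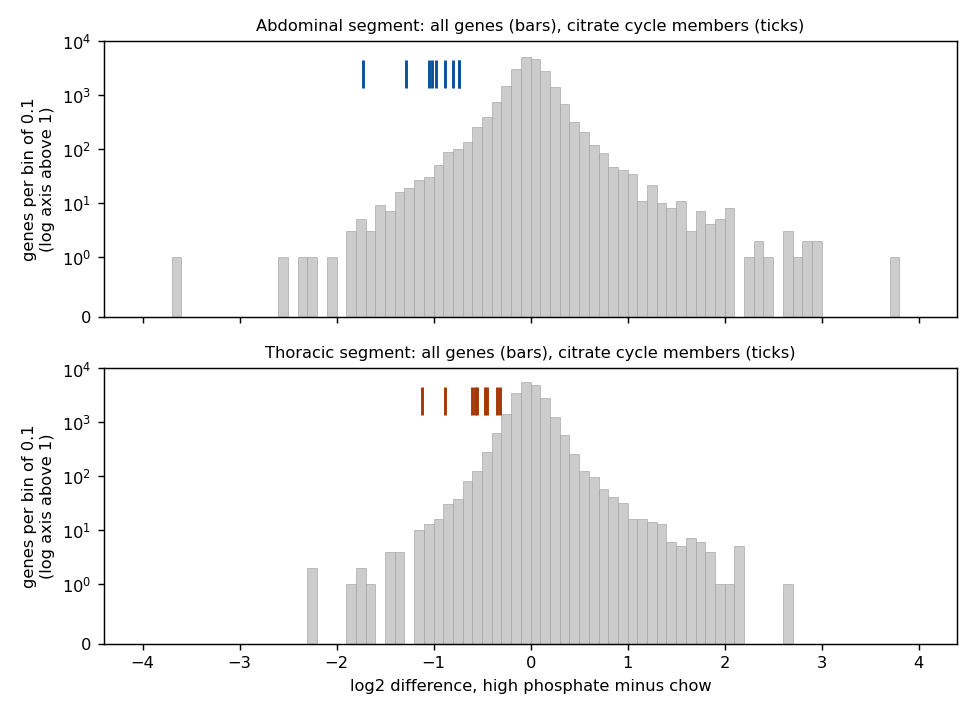
Number of genes per bin of 0.1 in log2 difference between high phosphate and chow (grey bars, log axis above 1) with the 9 citrate cycle genes as ticks, for the abdominal (top) and thoracic (bottom) segment. The ticks lie in the left flank in both panels, from -1.73 to -0.74 and from -1.12 to -0.32, while the median of all genes is -0.01 in each.

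The order of the groups was the same for the 9 genes. Each had its highest mean in thoracic chow, followed by abdominal chow, thoracic high phosphate and abdominal high phosphate. Thoracic and abdominal chow arrays overlapped in 8 of the 9, all but Suclg1. Abdominal chow overlapped with thoracic high phosphate in 6 of the 9, all but Cs, Ogdh and Suclg1. Thoracic and abdominal high-phosphate arrays overlapped only in Ogdh, where the lowest thoracic array read 9.97 and the highest abdominal array 10.01.

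On chow the segments differed little in these genes. The thoracic minus abdominal differences ran from 0.11 for Idh3b to 0.37 for Idh3a and Suclg1, and limma called 0 of the 9, against 1.76% of all genes called higher. At an unadjusted p under 0.05 Suclg1 and Mdh2 passed, 2 of the 9, against 19.4% of all genes. The closest to a call was Suclg1, at 0.37 ± 0.109 (adjusted p = 0.0652 in limma), whose groups alone did not overlap, against 6.01% of all genes in that direction, and which passed without abdominal chow array 1 (adjusted p = 0.0468 in limma). On high phosphate 8 of the 9 were called higher in the thoracic segment, all but Ogdh, against 7.57% of all genes. The groups did not overlap in 8, against 13.7% of all genes in that direction. The differences were 0.99 ± 0.217 for Idh3a, 0.78 ± 0.118 for Suclg1 and 0.70 ± 0.11 for Cs, down to 0.40 ± 0.141 for Ogdh. These comparisons share arrays with the diet comparisons above. Cardiac muscle genes moved with the segment as well, since the mean of 12 of them was 7.72 to 8.47 in thoracic chow and 8.29 to 8.72 in thoracic high phosphate, against 6.05 to 6.12 and 5.91 to 6.04 in the abdominal groups. Other lists moved with the segment too. On high phosphate 10 of 10 smooth muscle genes and 6 of 11 brown adipocyte genes were called higher in the thoracic segment, with medians of 0.96 and 0.71, and 8 of 9 genes of sympathetic neurons and chromaffin cells lower, with a median of -3.02. Of lymphoid genes, 7 of 10 of T and NK cells and 4 of 6 of B cells were called lower, and Glycam1, a gene of lymph node vessels, was lower by a log2 difference of -6.23. At an unadjusted p under 0.05 in limma, 28.1% of all genes passed in either direction. Of the lists, 10 of 10 smooth muscle, 8 of 11 brown adipocyte and 8 of 9 sympathetic and chromaffin genes passed. So did 8 of 10 genes of T and NK cells and 5 of 6 of B cells. The part of these tissues in the segment differences was not tested. Without the 5 abdominal arrays high in T and NK cell genes the differences on high phosphate ran from 0.26 for Ogdh to 0.85 for Idh3a. In that fit limma called 0 of the 9, and 7 of the 9 at an unadjusted p under 0.05, against 13.2% of all genes. On chow the median difference in that fit was 0.10, beside 0.16 with all arrays, and limma called 0 of the 9, with 1 at an unadjusted p under 0.05 against 12.4% of all genes.

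Within arrays, Idh3a was set against the other subunits of isocitrate dehydrogenase. The difference Idh3a minus Idh3b was -0.91 ± 0.09 (SD, n = 4) in abdominal chow and -1.91 ± 0.13 (n = 4) in abdominal high phosphate, a shift of -1.00. The shift of Idh3a minus Idh3g was -1.00 as well, and in the thoracic segment the shifts were -0.77 and -0.80. In these 4 comparisons the groups did not overlap. Idh3b minus Idh3g shifted by 0.00 in the abdominal and -0.03 in the thoracic segment, and its groups overlapped in both. Without the arrays with hepatocyte markers, and without the 5 arrays high in T and NK cell genes, the abdominal shifts were -0.93 and -1.03 for Idh3a minus Idh3b and -0.97 and -1.05 for Idh3a minus Idh3g. The first of each pair of values rests on 2 high-phosphate and 4 chow arrays, the second on only 1 and 2. The pairs of genes were picked with their values known, so these shifts are descriptions and were not tested. They are shifts of log2 differences on probe sets of unequal brightness and do not give the ratio of the subunits.

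Enzymes that share a reaction were compared in the same way. Suclg2, the GTP-forming beta subunit that can take the place of Sucla2, was picked out because of its values. It differed by -0.22 in the abdominal and 0.04 in the thoracic segment and was called in neither. Sucla2 minus Suclg2 within an array went from 0.17 ± 0.09 on chow to -0.67 ± 0.18 on high phosphate in the abdominal segment and from 0.23 ± 0.06 to -0.38 ± 0.16 in the thoracic segment. Idh2, the NADP-dependent mitochondrial isocitrate dehydrogenase and likewise picked for its values, differed by -0.19 and 0.21 and was called in neither. Idh3a minus Idh2 shifted by -1.55 in the abdominal and -1.32 in the thoracic segment. Without the arrays with hepatocyte markers and without the 5 arrays high in T and NK cell genes, the abdominal shifts were -0.75 and -0.94 for Sucla2 minus Suclg2 and -1.43 and -1.82 for Idh3a minus Idh2. Here too the first values rest on 2 high-phosphate and 4 chow arrays and the second on only 1 and 2. Mdh2 minus Mdh1, which sets the mitochondrial malate dehydrogenase against the cytosolic form, shifted by -0.15 and -0.07, with overlap of the groups in both segments. Suclg1 minus Sucla2 shifted by -0.23 with overlap in the abdominal segment and by -0.31 without overlap in the thoracic one. The abdominal shift of this pair was -0.31, with no overlap, without the arrays with hepatocyte markers. It was -0.03 without the 5 arrays.

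The start regions of these genes were searched for 4 sequence motifs of factors known to act on nuclear genes of mitochondria, on both strands, in RefSeq windows (GRCm38.p6) from 250 bases before to 50 bases after each start. They were AAGGTCA for estrogen-related receptors, CGCATGCG for NRF1, CCGGAAG for GABP and other ETS factors, and AAGATGGCG for YY1. Windows of 8 of the 9 genes, all but Idh3a, were matched, 13 windows in all, 6 of them from the several starts of Ogdh. Matches were found in Idh3g, Idh3b and Ogdh, and those sequences are shown because they alone held a match. They are written 5′ to 3′ on the strand of the gene, with the motif in capitals. The first is the 250 bases before the Idh3g start, chrX:73786898-73787147 on the minus strand, with the YY1 letters at -130 to -122 and the ETS letters at -104 to -98, counted from -1 for the last base before the start. The second, chr2:130284447-130284476 on the minus strand, holds the ETS letters on the opposite strand across the Idh3b start, from -5 to 2. The others lie at different starts of Ogdh on the plus strand, at chr11:6292155-6292184 with the estrogen-related receptor letters on the opposite strand, and at chr11:6292534-6292563 with the NRF1 letters.
Idh3g: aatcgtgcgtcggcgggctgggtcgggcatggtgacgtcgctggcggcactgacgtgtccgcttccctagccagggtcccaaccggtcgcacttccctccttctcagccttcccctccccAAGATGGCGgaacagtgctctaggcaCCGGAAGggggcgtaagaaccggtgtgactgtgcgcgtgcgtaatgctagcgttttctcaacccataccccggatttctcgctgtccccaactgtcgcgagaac
Idh3b: agctcccacgaccgcgctcgCTTCCGGcgt
Ogdh, receptor letters: gacacggcgcTGACCTTggtgcctgcggca
Ogdh, NRF1 letters: aggtgttgtgCGCATGCGtaactcaacttc

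Such matches are not rare. Of 32851 windows of all genes 8.86% held the ETS letters, 4.72% the estrogen-related receptor letters, 1.87% the NRF1 letters and 1.4% the YY1 letters. Among the 13 windows of citrate cycle genes the counts were 2, 1, 2 and 1, and the 2 with NRF1 letters are overlapping windows of Ogdh. The genes with a match changed in the abdominal segment by -0.74 (Idh3g), -0.74 (Idh3b) and -0.88 (Ogdh), and those with a window and no match by -1.28 to -0.80. Idh3a, which had no window, changed by -1.73. A match is a string of letters and does not show that a factor binds.

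RNAs of the other enzymes of the cycle mostly fell too. Of 9 further genes 8 were measured, and 6 of the 8 were called lower in the abdominal and 2 in the thoracic segment, with medians of -0.81 and -0.44. Dlst, the middle subunit of the oxoglutarate dehydrogenase complex, fell most, by 1.16 on the log2 scale (SE 0.163) in the abdominal and 0.82 (SE 0.177) in the thoracic segment. Dld, the subunit it shares with pyruvate dehydrogenase, changed by -0.82 ± 0.102 in the abdominal segment and differed by -0.43 ± 0.11 in the thoracic one (adjusted p = 0.0517 in limma). Of succinate dehydrogenase, which also serves as complex II of the respiratory chain, Sdhc fell in both segments (-0.85 ± 0.11 and -0.49 ± 0.119), and Sdha (-0.59 ± 0.0851), Sdhb (-0.80 ± 0.121) and Sdhd (-0.87 ± 0.156, named after its values were seen) in the abdominal one.

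Genes that feed pyruvate into the cycle gave a mixed picture. Of 11 measured, 6 were called lower in the abdominal and 2 in the thoracic segment. Mpc1, a subunit of the mitochondrial pyruvate carrier, read 8.72, 8.12, 7.91 and 8.28 in abdominal chow and 6.68, 6.61, 6.95 and 6.87 in abdominal high phosphate. Its change was -1.48 ± 0.187 there and -0.81 ± 0.202 in the thoracic segment (adjusted p = 0.0489 in limma). The pyruvate dehydrogenase subunits Pdhb (-0.79 ± 0.114), Pdhx (-0.79 ± 0.125), Pdha1 (-0.89 ± 0.157) and Dlat (-0.85 ± 0.153) fell in the abdominal segment, and of these Pdhb fell in the thoracic one (-0.54 ± 0.123). The 6th gene called lower in the abdominal segment was the kinase Pdk4 (-0.74 ± 0.184). The kinases Pdk1, Pdk2 and Pdk3 and the phosphatases Pdp1 and Pdp2, which switch that complex off and on, were called in neither segment. These kinases and phosphatases were named after their values were seen, with abdominal differences from -0.28 for Pdk2 to 0.07 for Pdk1.

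A list of 6 genes held the cytosolic forms of cycle enzymes (Aco1, Idh1 and Mdh1) and genes of citrate export and use (Slc25a1, Acly and Me1). Of the 6, 4 were called lower in the abdominal and 2 in the thoracic segment. Aco1, the cytosolic aconitase that doubles as an iron sensor, changed by -1.17 ± 0.154 and -0.82 ± 0.166, and Mdh1 by -0.65 ± 0.081 and -0.39 ± 0.0874, all 4 called. Idh1 (-0.59 ± 0.102) and the malic enzyme Me1 (-1.20 ± 0.3) fell in the abdominal segment. Acly and Slc25a1, called in neither segment, differed by -0.66 and -0.90 in the abdominal one. The median of the list there was -0.78.

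Among 14 transcription factors and coactivators of mitochondrial genes, 4 were called lower in the abdominal segment and 1 in the thoracic one, and 0 were called higher. Ppargc1b, a coactivator of mitochondrial genes, read 8.51, 8.17, 8.18 and 8.02 in abdominal chow and 7.27, 7.31, 7.65 and 7.30 in abdominal high phosphate. It fell in both segments (-0.84 ± 0.149 and -0.68 ± 0.161). Its relative Ppargc1a, which drives the thermogenic program of brown fat, changed by -1.15 ± 0.252 in the abdominal segment. Ppara, a receptor that turns on fatty acid oxidation, changed there by -1.00 ± 0.25, and Esrrg, an estrogen-related receptor, by -0.48 ± 0.124. The list medians were -0.13 and -0.10, so most of these regulators differed far less than the enzymes.

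These list counts rest on the same abdominal arrays. Without the arrays with hepatocyte markers the abdominal counts called lower were 6 of 8 other cycle enzymes, 5 of 11 genes of pyruvate entry, 3 of 6 of the cytosolic and citrate export list and 3 of 14 regulators, with medians of -0.89, -0.48, -0.78 and -0.09. Without the 5 arrays high in T and NK cell genes the medians were -0.70, -0.57, -0.80 and -0.09 and limma called 0 genes of these lists. Over these 4 lists and the 2 on fatty acids and on refilling of the cycle, 29 of 61 genes then had an unadjusted p under 0.05, against 11.1% of all genes.

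**Figure D4:**
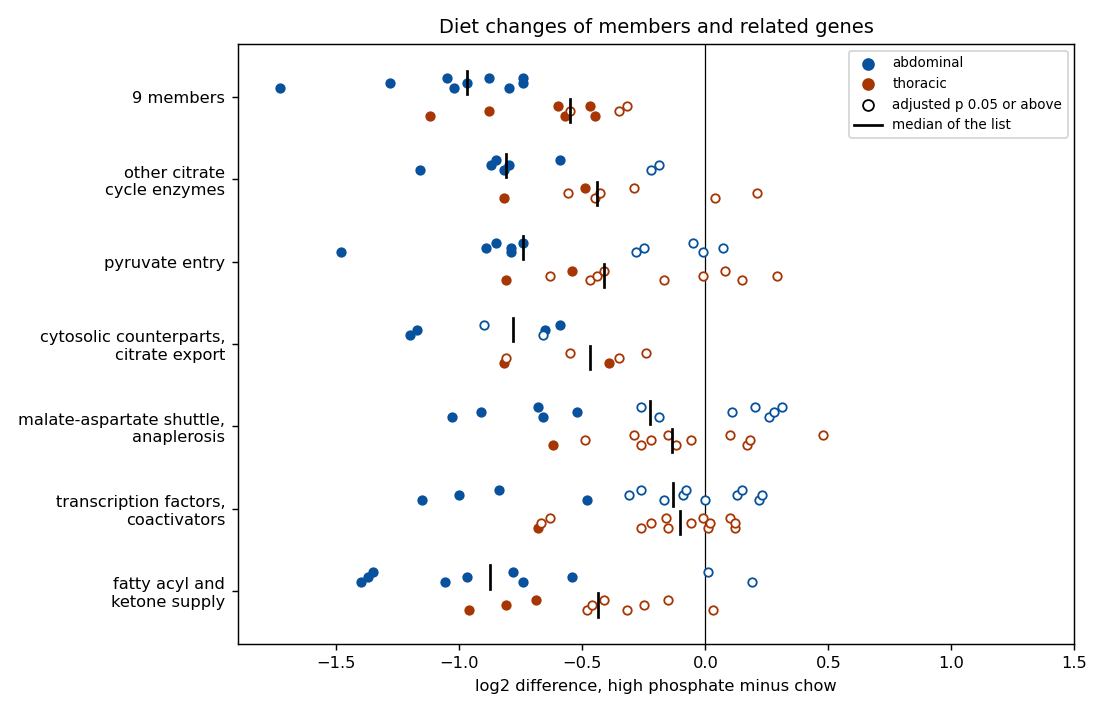
Log2 difference between high phosphate and chow for the 9 citrate cycle genes and 6 lists of related genes (1 point per gene, filled where called, with the list median as a black line), in the abdominal and thoracic aorta. The median of the 9 genes is -0.97 in the abdominal segment, against -0.13 for the transcription factors and coactivators.

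The genes most like the 9 over the arrays were other mitochondrial genes. Each gene was centred on its own mean over the 15 arrays and set against the mean profile of the 9, and the 8 closest of the others by root mean square difference are named. The closest was Ndufs1, a core subunit of complex I, at 0.0603 on the log2 scale, followed by Acadvl, which oxidises very long fatty acids, at 0.0698. Next were Pcca (0.0809) and Mccc1 (0.0851), which are subunits of carboxylases of amino acid breakdown, then Cyc1 of complex III (0.0883), Ndufv1 of complex I (0.0887), Acadm of medium-chain fatty acid oxidation (0.0902) and Etfdh, which passes electrons from such oxidation to the respiratory chain (0.0935). Cs, Sucla2 and Fh1 ranked 2, 3 and 5 among all genes by the same measure, though each is part of the profile. Idh3a, with its larger swings, was 0.377 away and ranked 1444.

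Brown adipocyte markers moved with the citrate cycle genes. The mean of 11 of them was 8.35 to 8.77 in abdominal chow, 6.98 to 7.46 in abdominal high phosphate, 8.71 to 8.98 in thoracic chow and 7.70 to 8.21 in thoracic high phosphate. Of the 11, 10 were called lower in the abdominal and 5 in the thoracic segment, with 10 and 4 in the abdominal one without the arrays with hepatocyte markers and without the 5 arrays high in T and NK cell genes, and some of them, such as Cox7a1 and Cox8b, encode mitochondrial proteins. Ucp1, the heat-making protein that defines brown fat, lay between 7.01 and 9.03 in abdominal high-phosphate arrays and between 8.84 and 10.32 in thoracic ones, against 11.36 to 11.97 on chow in either segment. Thoracic high-phosphate array 3, the lowest of its group in each of the 9 genes, also had the lowest brown adipocyte mean of that group, 7.70, and the lowest Ucp1, 8.84. The same array had the highest skeletal muscle mean of that group, 7.45 against 6.02 and 5.75. The part of either tissue in its values was not tested.

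General adipocyte markers moved less. The mean of 14 of them was 9.21 to 9.61 in abdominal chow against 8.64 to 8.96 in abdominal high phosphate, and 6 were called lower, or 0 without the 5 arrays high in T and NK cell genes. In the thoracic segment the ranges, 9.23 to 9.60 and 9.03 to 9.37, overlapped, 1 of the 14 was called lower and the median change was -0.06, beside -0.55 for the citrate cycle genes. With the means of both adipocyte lists as covariates, the median change of the 9 genes was 0.00 in the abdominal and -0.06 in the thoracic segment, and limma called 0 of the 9, like 0 of all genes, in either. At an unadjusted p under 0.05 it picked 0 and 1 of the 9, against 8.06% and 9.51% of all genes. The brown adipocyte mean, however, did not overlap between the diets in either segment. This fit therefore cannot separate that list from the diet. Whether fewer brown adipocytes or less of these RNAs in each cell went with the diet cannot be told apart in these arrays. The smooth muscle list overlapped between the diets in both segments. Its means were 8.06 to 8.68 and 8.01 to 8.63 in abdominal chow and high phosphate, and 8.93 to 9.10 and 9.06 to 9.26 in the thoracic groups. All 10 of its genes had lower means on high phosphate in the abdominal segment, with a median change of -0.18 and 1 called lower. In the thoracic segment 4 of the 10 had lower means, with a median change of 0.12 and 1 called higher. Without the arrays with hepatocyte markers 3 were called lower in the abdominal segment, with a median of -0.39. Without the 5 arrays high in T and NK cell genes the abdominal median was 0.07.

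**Figure D5:**
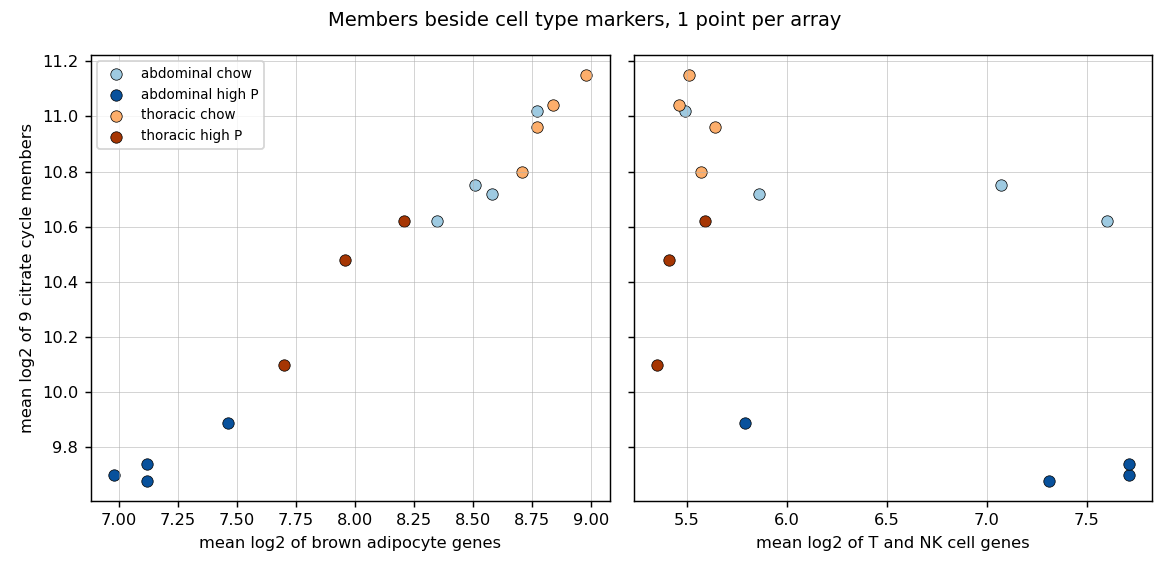
Mean log2 intensity of the 9 citrate cycle genes (vertical axis) against the mean of 11 brown adipocyte genes (left) and of 10 T and NK cell genes (right), 1 point per array in 4 groups (high P, high phosphate). Arrays low in brown adipocyte genes, down to 6.98, are low in citrate cycle genes. Abdominal high-phosphate array 3, with a T and NK cell mean of 5.79 and a hepatocyte mean of 8.29, has the highest citrate cycle mean of its group. That mean is 9.89, against 9.68 to 9.74 in the others. The part of these cells in the values was not tested.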

How the data were processed

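The deposited table holds 1 value per probe set and array, taken as log2 intensity. RMA and Partek are named in the submitters' processing notes, with no version, role or order, and the log base was inferred from the range, 1.381 to 13.33. Array medians lay between 5.778 and 5.84. No scan dates or detection calls were used here, so signal over background is unknown and precision rests on how many arrays there are. Of 41345 probe sets 23521 name 1 gene symbol in GEO's platform table. The brightest per gene by mean over 15 arrays was kept, which left 22180 genes.

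A linear model of 4 group means was fitted to all genes in R 4.3.3 by limma 3.58.1, with eBayes and a mean-variance trend, two-sided, Benjamini-Hochberg adjusted over all genes, and was tested on simulated data. Replicate numbers are shared between groups, but same-numbered arrays were not treated as pairs. Of 21 same-numbered pairs, which include pairs on different diets, 5 had deviations correlated above 0.1. Between the segments on the same diet, where 1 mouse could have given both arrays, these correlations were all positive, from 0.03 to 0.122. They cannot decide whether the segments came from the same mice. Where arrays do not come from separate mice, p-values measure only the spread between these samples.

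The 9 genes, the lists and the alternatives were chosen with earlier results of these data known. From each related list up to 4 genes with the smallest p in each diet comparison were named, and the 8 genes closest in profile. Further genes of these lists, such as Acly, Slc25a1 and Pdk4, were named outside this rule with their values known. Leaving out the arrays with hepatocyte or with T and NK cell markers was added after seeing the data. No protein sequences were used here.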

Additional observations from a re-analysis of the deposited data

Results flagged for a closer look

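In 3 of 27 groups of 4 arrays looked at, 1 array stood apart from the other 3 by Dixon's test at the 95% level, and chance alone gives about 1 such group in 20. Fh1 read 11.00 in abdominal chow array 1, against 10.45 to 10.50 in the others. Idh3g read 11.51 in the same array, against 11.31 to 11.35. Idh3b read 10.54 in abdominal high-phosphate array 3, against 10.34 to 10.37. The first of these arrays was the highest of its group in 9 of 9 citrate cycle genes and the second in 8 of 9. Several marker lists stood at an extreme of the group in the same arrays. Chow array 1 had the lowest T and NK cell mean (5.49), the lowest Glycam1 (8.95), and the highest brown adipocyte (8.77), smooth muscle (8.68) and skeletal muscle (7.97) means. High-phosphate array 3 had the lowest T and NK cell (5.79) and skeletal muscle (5.36) means and the highest brown adipocyte (7.46) and smooth muscle (8.63) means. The part of these cells in the values was not tested.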

How the results depend on the processing

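The abdominal count of 9 called genes was 9 in each fit that left out 1 array, and 9 with the replicate block. It was 0 with the adipocyte list means as covariates and 2 without the 5 arrays high in T and NK cell genes. The thoracic count of 6 ranged from 1 to 8 with 1 array left out, was 8 with the replicate block, and was 2 with only the groups compared and 0 with the covariates. The count for the segments on chow, 0, ranged from 0 to 1 with 1 array left out and was 1 with only the groups compared, quantile normalization, array weights or an adjusted p under 0.1, each time Suclg1. The count on high phosphate, 8, ranged from 7 to 9 with 1 array left out and was 0 with the covariates and 0 without the 5 arrays. The difference between the diet changes had 0 calls in every fit run, and at an unadjusted p under 0.05 picked 0 of the 9 with the covariates, against 4.79% of all genes. The replicate block left those counts within 1.5 times. With the covariates 8 called values turned sign, with no call. The abdominal changes of Idh3b, Ogdh and Sucla2 became 0.31, 0.15 and 0.06, the thoracic ones of Cs and Sucla2 0.12 and 0.11, and the segment differences on high phosphate of Idh3a, Idh3b and Sucla2 -0.06, -0.13 and -0.01. The brown adipocyte covariate did not overlap between the diets in either segment. The cause of the turned signs was not tested. The fit without the 5 arrays keeps 1 abdominal high-phosphate array. Without the arrays with hepatocyte markers no call of the 9 genes changed. Without the 5 arrays high in T and NK cell genes the chow segment difference of Idh3b, called in neither fit, was -0.01 against 0.11. Each of the 9 has 1 probe set, so the mean of probe sets gave the same values. The share of all genes called is not given here for most of these fits. A change in a count therefore need not be particular to the 9 genes.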

Other observations

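Most RNAs of enzymes that bring acetyl-CoA to the cycle from fatty acids and ketone bodies were lower in the same arrays. Of 10 measured, 8 were called lower in the abdominal and 3 in the thoracic segment, with medians of -0.88 and -0.44. Acaa2, Cpt2 and Hadha, which take fatty acids into and through beta-oxidation in mitochondria, fell in both segments. Their changes were -1.40 ± 0.146 and -0.69 ± 0.157 for Acaa2, -1.37 ± 0.153 and -0.96 ± 0.165 for Cpt2, and -1.35 ± 0.14 and -0.81 ± 0.151 for Hadha. Acat1, the thiolase of ketone and isoleucine use, fell in the abdominal segment (-0.78 ± 0.0955). The abdominal count was 7 without the arrays with hepatocyte markers and 0, with a median of -0.82, without the 5 arrays high in T and NK cell genes.

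Genes that refill the cycle or shuttle its malate gave a split picture. Of 12 measured, 5 were called lower in the abdominal and 1 in the thoracic segment, and 0 were called higher. Pcca and Mcee, both on the route from propionyl-CoA to succinyl-CoA, changed by -1.03 ± 0.124 and -0.68 ± 0.128 in the abdominal segment, and Pcca by -0.62 ± 0.134 in the thoracic one. The pyruvate carboxylase gene Pcx (-0.91 ± 0.163) and the oxoglutarate carrier gene Slc25a11 (-0.52 ± 0.0746) fell in the abdominal segment. The aspartate aminotransferases Got1 and Got2 and the aspartate carriers Slc25a12 and Slc25a13, picked out after their values were seen, were called in neither segment, with abdominal differences of 0.31, 0.20, 0.11 and 0.28. Without the arrays with hepatocyte markers 4 of the 12 were called lower and 1 higher in the abdominal segment, and without the 5 arrays high in T and NK cell genes 0 were called, with a median of -0.27.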
